A study of Mus musculus with 10 samples.

Results

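The dystrophin glycoprotein complex was followed in the mouse right atrium through 8 genes, selected by symbol from the 23337 genes of the deposited table. These were the cytoskeletal linkers Dmd (dystrophin) and Utrn (utrophin), the receptor gene Dag1 (dystroglycan), the sarcoglycans Sgca, Sgcb and Sgcd, the syntrophin Sntb1 and the dystrobrevin Dtna. All 8 passed the filter on low counts that left 13084 genes for testing. The series compared control right atrium with right atrium after removal of Tbx5, a T-box transcription factor of the heart, by RNA-seq of 10 mice of mixed strain. Of these, 4 were labelled control (M1, M2, F1 and F2) and 6 were labelled Tbx5 mutant (M1 to M3 and F1 to F3), and each mouse gave 1 library. The genotype of the mutants is labelled R26Cre driven TBX5 removal. It relies on a Cre recombinase that tamoxifen switches on and that the R26 promoter drives in all cell types, so the removal of exon 3 was not limited to cardiomyocytes. The labels give the control genotype only as control, without naming its alleles. The stated treatment, the same for all 10 mice, was 0.167 mg of tamoxifen per day for 3 days, with collection 1 week later. Ages are given both as 8 to 10 weeks and as 6 to 8 weeks.

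The complex joins the actin cytoskeleton of a muscle cell to the basement membrane. Dystrophin binds actin at one end and dystroglycan at the other, dystroglycan binds laminin outside the cell, and the sarcoglycans hold the link together in the membrane. Loss of dystrophin causes Duchenne muscular dystrophy, which includes a cardiomyopathy, and utrophin is its close relative, able to take part of its place.

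Dystrophin and utrophin are paralogs, and their sequence is shown first because reads on one gene could in principle be credited to the other. Dmd lies on the forward strand of chromosome X, at chrX:82948870-85206141 in build GRCm38, with 14 transcripts annotated in GENCODE M21. Its longest transcript, Dmd-203, has 14910 bases in 79 exons. Utrn lies on the reverse strand at chr10:12382188-12869365, and Utrn-201 has 12382 bases in 74 exons. The longest identical run of these transcripts was 25 bases long. It lies in coding sequence, in exon 67 of Dmd-203 (chrX:85110051-85110075) and in exon 62 of Utrn-201 (chr10:12441961-12441985, reverse strand). The run is given in capitals with 40 bases of each transcript on either side, and 80 of the 105 bases shown were identical at the same position.
Dmd-203: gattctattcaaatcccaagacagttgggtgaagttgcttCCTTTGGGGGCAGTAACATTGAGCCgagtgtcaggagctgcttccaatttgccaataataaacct
Utrn-201: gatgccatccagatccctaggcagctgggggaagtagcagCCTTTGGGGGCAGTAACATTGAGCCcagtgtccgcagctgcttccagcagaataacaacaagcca
None of the 14861 windows of 50 bases in Dmd-203, and none of the 12333 in Utrn-201, was found in a transcript of another gene. The same held for Dag1, Sgca, Sgcb, Sgcd and Dtna. In Sntb1, 11 of 4870 windows occurred in transcripts of other genes. Of the 8 members, Dtna alone had exon bases in common with another gene, 90 bases with Gm47898 on the opposite strand, and how the counting treated strand is not given in the sources used here.

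Upstream sequence in the RefSeq annotation of GRCm38.p6 was at hand for 6 of the 8 members, with 8 start sites in all. The 250 bases before a start were searched on both strands. The core T-box sequence AGGTGT, which Tbx5 and its relatives bind, occurred in 0 of these 8 windows, against 11.8% of 32851 windows of all genes. This says only that these letters are not in this stretch. The window before the upstream Dmd start (chrX:82948620-82948869, forward strand) held 1 match to the CArG box, the element of serum response factor, found in 1.47% of all windows. It is marked in capitals. The window before the upstream Dag1 start (chr9:108263959-108264208, reverse strand) held 3 matches to the GC box GGGCGG, which 32.7% of all windows held and which are marked in capitals.
Dmd: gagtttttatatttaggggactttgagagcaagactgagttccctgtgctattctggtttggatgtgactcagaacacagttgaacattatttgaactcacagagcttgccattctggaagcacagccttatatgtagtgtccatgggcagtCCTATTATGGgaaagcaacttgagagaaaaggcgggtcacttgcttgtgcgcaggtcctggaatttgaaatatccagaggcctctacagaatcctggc
Dag1: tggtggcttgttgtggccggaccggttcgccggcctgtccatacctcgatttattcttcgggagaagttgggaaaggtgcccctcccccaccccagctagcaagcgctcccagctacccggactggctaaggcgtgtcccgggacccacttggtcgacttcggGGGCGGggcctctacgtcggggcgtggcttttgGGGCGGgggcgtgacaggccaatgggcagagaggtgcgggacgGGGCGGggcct
The Dmd window had a GC content of 45.2% and 2 CpG dinucleotides, and the Dag1 window 67.6% and 21. These windows are shown because Dag1 and Dmd had the highest levels per length in the control mice. The letters CANNTG, the E-box that many muscle regulators bind, occurred 2 times in the Dmd window and once in the Dag1 window, and 66.2% of all windows held them.

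Library totals ranged from 5703775 to 7095141 counts. The 45S ribosomal RNA precursor gene Rn45s took 38.9% of the counts in mutant M3 and at most 1.49% in the others. Tbx5 itself, read over the whole gene, was higher in the libraries labelled mutant. It was at 205 ± 17.8 CPM (counts scaled to the size of the library; SD, n = 4) in control and 394 ± 83.3 CPM (n = 6) in Tbx5 mutant mice. Its log2 fold change was 0.94 (adjusted p = 0.000495, edgeR quasi-likelihood test). Directions below are therefore relative to the labels. Xist and Ddx3y went against the sex labels in all 4 control libraries and with them in the mutant libraries. Of the 10 cardiomyocyte markers, all were detected, and the atrial markers Myl7, Nppa and Sln were present in both groups. The labelled groups differed at many genes: 2049 of 13084 were called, meaning an adjusted p under 0.05, a fold change over 1.5 and a control mean of the authors' normalized signal over 1.

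Set per kilobase of the longest transcript, so that genes can be compared with each other, the control levels were led by the receptor and by dystrophin. Dag1 (68.2 ± 6.44 CPM per kb; SD, n = 4) and Dmd (62.7 ± 20.8) were highest, and their libraries overlapped. Utrn (42.4 ± 8.06), Sgcb (38.4 ± 4.48) and Sgca (35.9 ± 6.70) followed, and the ranges of neighbours from Dag1 down to Sgca overlapped. Within libraries, Dmd was above Utrn in all 4 controls, while Dag1 was above Dmd in 2 of 4, Utrn above Sgcb in 2 of 4 and Sgcb above Sgca in 3 of 4. Sgcd (13.1 ± 0.867) lay just above Dtna (9.96 ± 0.256), with no overlap of the libraries. Sntb1 (0.383 ± 0.0777) was lowest by a wide margin, with 10 to 18 reads per control library. In Tbx5 mutant mice Dag1 (47.8 ± 6.26 CPM per kb; SD, n = 6), Dmd (38.9 ± 22.5), Sgca (38.5 ± 3.93) and Sgcb (35.9 ± 2.75) came first, and Utrn was at 25.3 ± 8.02. Sgcd (11.1 ± 1.41) and Dtna (10.9 ± 1.84) overlapped there, and Sntb1 was at 0.648 ± 0.316. The choice of transcript sets these levels per length, since several members have many annotated transcripts. It has no part in the main comparison of groups for 1 gene. It does bear on the values given below with a trend on transcript length removed, which use the same longest transcript.

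**Figure D1:**
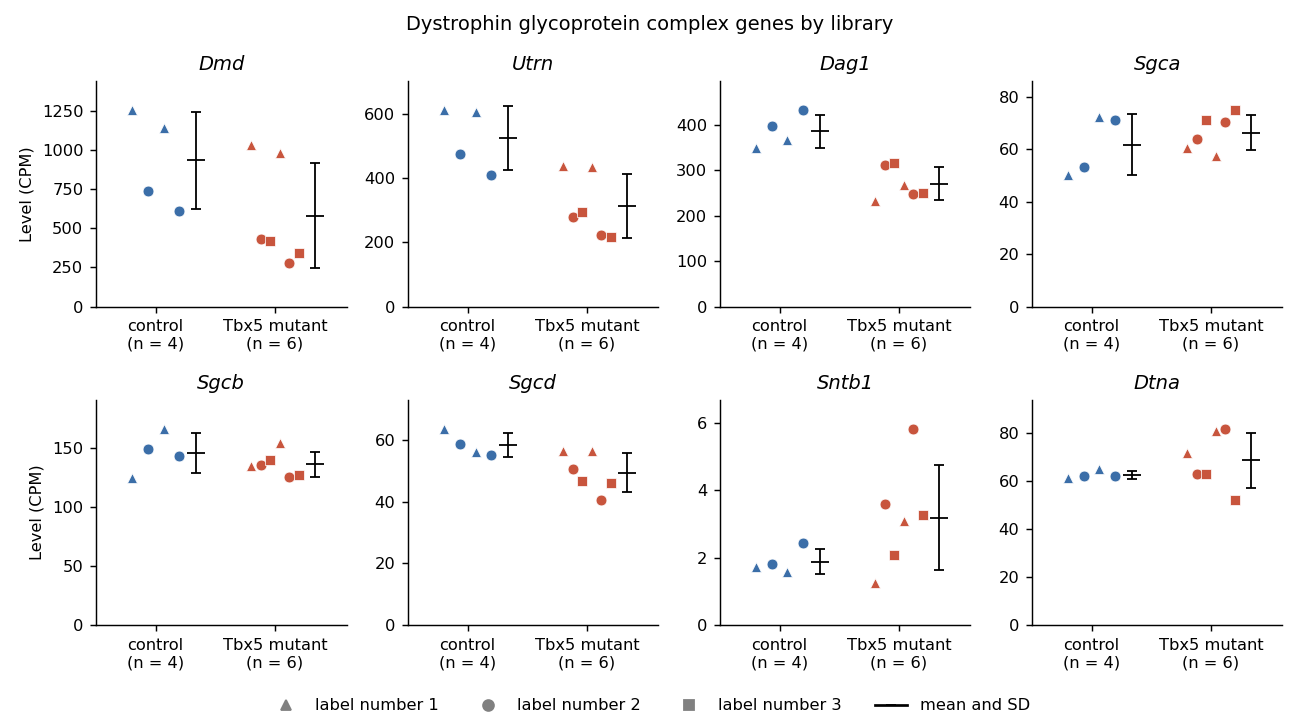
Level of each of the 8 genes in CPM (vertical axis, from 0) in each library of the control (n = 4, blue) and Tbx5 mutant (n = 6, red) groups. Point shape gives the number in the mouse's label, and the bar gives mean and SD. Dag1 is the gene whose groups do not overlap, with controls at 348 CPM or more and mutants at 317 or less, while Dmd runs from 278 to 1252 CPM and its 4 highest libraries are the 4 that carry the number 1.

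Dag1, which encodes both the laminin-binding and the membrane-spanning part of dystroglycan, was lower in every Tbx5 mutant mouse than in every control mouse. It was at 348, 397, 368 and 432 CPM in control M1, M2, F1 and F2. In Tbx5 mutant mice the lowest value was 232, the median 258 and the highest 317 CPM. The groups did not overlap, which was true of 11% of all tested genes in the lower direction. The means were 386 ± 36.4 (SD, n = 4) and 271 ± 35.5 CPM (n = 6), a fold change of 0.702 (95% interval 0.596 to 0.826). On the log2 scale the difference was -0.51 ± 0.11 (SE; adjusted p = 0.00343, edgeR quasi-likelihood test). The exact two-sided permutation test over all 210 splits of the mice gave p = 0.00476, the smallest that 4 mice against 6 allow. Dag1 passed the threshold on adjusted p and not the one on fold change, so it was not among the called genes. Its adjusted p was under 0.05 in 27 of 27 alternatives, from 6.1e-05 to 0.0499. In bulk tissue, fewer cells of a type and less RNA per cell cannot be told apart.

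Utrn, the autosomal relative of dystrophin, was the 1 member called, and it was lower in Tbx5 mutant mice. Of all tested genes, 7.16% were called lower, so 1 of 8 is not a result on the complex as a group. Utrn was at 610, 474, 607 and 409 CPM in control M1, M2, F1 and F2. The mutant mice ran from 215 to 438 CPM with a median of 287. All 6 mutant mice were below the control mean, and the groups overlapped because mutant F1 (438 CPM) and M1 (433) stood above control F2. The means were 525 ± 99.8 (SD, n = 4) and 314 ± 99.3 CPM (n = 6), a fold change of 0.598 (95% interval 0.441 to 0.811). The log2 fold change was -0.74 ± 0.21 (SE; adjusted p = 0.0142, edgeR quasi-likelihood test), and the exact two-sided permutation test gave p = 0.019. After correction of the libraries for a trend on transcript length (described with Dmd), Utrn was at -0.42 with an adjusted p of 0.0527 in the same edgeR test, so the call was lost.

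Dmd, the gene of dystrophin itself, was not called, and its libraries spread more widely than those of Utrn or Dag1. Control M1 and F1 were at 1252 and 1141 CPM, and control M2 and F2 at 736 and 609. In mutant mice F1 (1031 CPM) and M1 (981) again stood high, and the other 4 lay between 278 and 429. The groups overlapped, with means of 935 ± 310 (SD, n = 4) and 580 ± 335 CPM (n = 6). The fold change was 0.621 with a 95% interval of 0.368 to 1.05, which holds 1. On the log2 scale this was -0.69 ± 0.35 (SE; adjusted p = 0.152, edgeR quasi-likelihood test), with an exact two-sided permutation p of 0.129. Leaving out mutant F1, the mutant library with the highest level, gave -0.93 on the log2 scale and an adjusted p of 0.0444 in the same edgeR test, and Dmd was called. Over the 10 fits that each left out 1 library, Dmd ran from -0.93 to -0.51, the latter without control M1 (adjusted p = 0.359, same edgeR test). It was at -0.54 without mutant M2, the mutant library with the lowest level (adjusted p = 0.25).

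The 4 libraries with the number 1 in their label held the 4 highest Dmd levels, a pattern noticed after the values were seen. What the number stands for is not stated. Among libraries numbered 1, the Dmd mean was 1197 CPM in control (1141 to 1252, n = 2) and 1006 in mutant mice (981 to 1031, n = 2), a ratio of 0.841. Among those numbered 2 or 3 it was 672.5 CPM (609 to 736, n = 2) and 367 (278 to 429, n = 4), a ratio of 0.546. The mutant libraries were lower and did not overlap the control libraries within either set. Utrn did the same, with mean levels of 608 and 435 CPM for number 1 (ratio 0.716) and 442 and 253 CPM for the other numbers (ratio 0.572). The sets were drawn up after the Dmd values were seen, and the share of all tested genes that separate within them is not given. The separation is therefore a description only. For Dag1 the ratios were 0.697 and 0.679, and its level was not higher in the libraries numbered 1. With the label number as a block, an alternative chosen after seeing this pattern, the log2 fold change of Dmd was -0.59 with an adjusted p of 0.0218 in the edgeR quasi-likelihood test. Number 3 occurs only in mutant mice (F3 and M3), so their libraries do not inform the group difference in this fit. Dmd was called lower in it, which it was not without the block. Utrn was at -0.65 with an adjusted p of 0.0028 in the same edgeR fit, and was called in both.

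The levels of the 2 longest members followed a property of the libraries. In each library, the deviation of every gene from its mean over libraries was ranked against transcript length, which gives 1 Spearman correlation per library. It was 0.124 to 0.330 in the control libraries and -0.380 to 0.0429 in the mutant libraries, so long genes as a whole stood lower in the mutant libraries and the groups did not overlap. Over 12951 genes, the log2 fold change correlated with length at a Spearman value of -0.32. After the group means were taken out, the log2 CPM of Utrn correlated with this library value at r = 0.965 and that of Dmd at 0.930 (10 libraries). These are descriptions across libraries that share their depth and preparation. Sgcd, with 4453 bases, was at 0.883 and Dag1, with 5662 bases, at -0.167, so these values did not follow the order of the longest transcripts. The longest Sgcd transcript has only 3 exons. All annotated exons together cover 8257 bases in Sgcd and 6357 in Dag1, which puts the 2 genes in the other order. Removing the trend moved Dmd to a log2 fold change of -0.35 (adjusted p = 0.399, edgeR quasi-likelihood test). Dag1 moved to -0.38 (adjusted p = 0.0165, same test). What part of the length trend is technical cannot be told apart from the groups in these libraries.

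**Figure D2:**
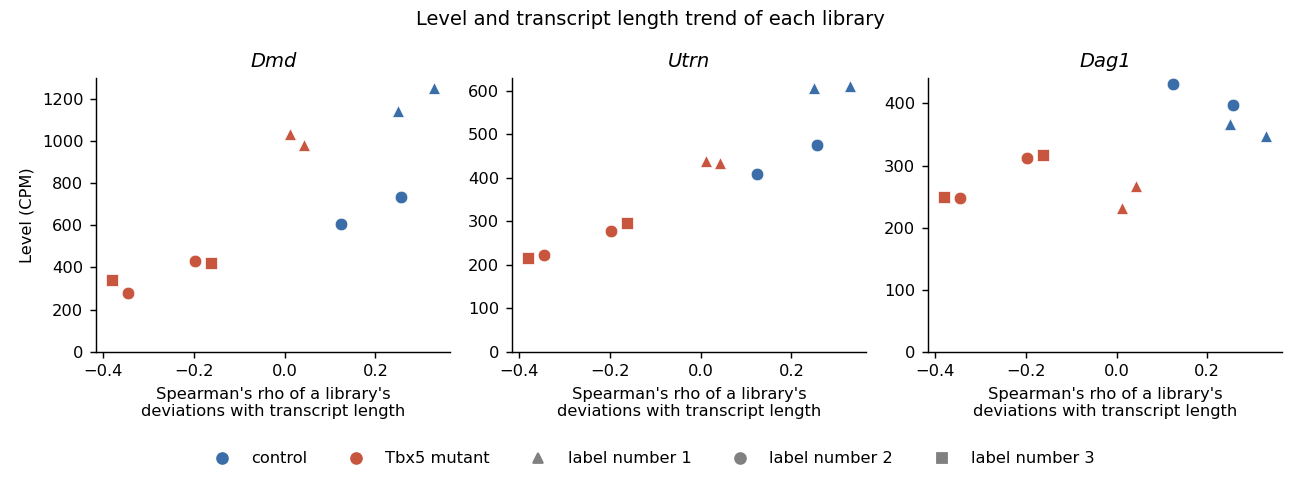
Level in CPM (vertical axis, from 0) of Dmd, Utrn and Dag1 in each library against that library's Spearman correlation between the deviations of all genes and transcript length (horizontal axis). Blue points are control (n = 4) and red points Tbx5 mutant libraries (n = 6), with the point shape giving the label number. Dmd and Utrn climb with the library value, while Dag1 splits by group, with the 4 control libraries at 348 CPM or more.

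With the length trend removed, the Dmd values of the libraries were closer between groups. Controls M1, M2, F1 and F2 were then at 1017, 619, 960 and 548 CPM, and the mutant libraries still ran from 365.5 to 1015. The split by label number therefore remained after the removal: mutant F1 (1015 CPM) and M1 (959) stayed with control M1 and F1. The corrected Utrn values were 507, 405, 523 and 373 CPM in the controls and 267 to 433 in the mutant mice. For Dag1 the corrected groups met more closely, with the lowest control at 321 CPM (M1) and the highest mutant at 320 (F3), still without overlap.

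Utrn and Dmd moved together from mouse to mouse. After removal of group means their log2 levels correlated at r = 0.980 over the 10 libraries, a description of libraries that share the length trend. Utrn reads were 0.487 to 0.672 of the Dmd reads in control and 0.425 to 0.801 in mutant libraries, and the lowest 2 mutant ratios were those of F1 (0.425) and M1 (0.441). Sgcd followed both, with r = 0.886 to Dmd and 0.840 to Utrn. Dag1 did not follow them (r = -0.398 and -0.300). Among all tested genes, the ones most like Dmd were Macf1 (r = 0.993), which encodes a giant cytoskeletal linker, and Bod1l (0.990). Those most like Utrn were Ddx46 and Eea1 (0.990 each). For Dag1 they were Rprd2 and Med1, both at 0.946. The same search gave Tmem109 (0.972) and Coq7 (0.967) for Sgca, Foxj3 (0.935) for Sgcb, and Ttc14 and Ift81 (0.979 each) for Sgcd. It gave Mastl (0.981) and Syk (0.958) for Dtna, and Gpr64 (0.943) and Klhl34 (0.938) for Sntb1. These are the first or second of a ranking of all tested genes over 10 libraries.

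The sarcoglycans, single-pass membrane proteins that form 1 subcomplex, differed little between the groups, and none of the 3 members passed the threshold on adjusted p. Sgcd, delta-sarcoglycan, was at 63.7, 58.9, 56.1 and 55.1 CPM in control M1, M2, F1 and F2. In mutant mice it ran from 40.6 to 56.6 CPM with a median of 48.7, so that the highest mutant values overlapped the lower control values. Its log2 fold change was -0.24 ± 0.10 (SE; fold change 0.848, 95% interval 0.728 to 0.987; adjusted p = 0.0911, edgeR quasi-likelihood test), and the exact permutation test gave p = 0.0524. Without mutant M1 the adjusted p was 0.0450 in the same edgeR test, at a log2 fold change of -0.29.

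Beta-sarcoglycan, encoded by Sgcb, was at 125, 148, 166 and 143 CPM in the 4 control mice and at 125 to 154 CPM in the mutant mice. The groups covered nearly the same range. The fold change was 0.935 with a 95% interval of 0.813 to 1.08 (adjusted p = 0.456, edgeR quasi-likelihood test). Sgca, which encodes alpha-sarcoglycan, was at 50.3, 53.4, 72.3 and 71.2 CPM in the controls and at 57.6 to 74.9 CPM in the mutants. The 2 controls labelled female were higher than the 2 labelled male, and both of those labelled female lay within the mutant range. By their Xist and Ddx3y reads, the sexes of these 4 controls are the reverse of their labels. Its fold change was 1.07 (95% interval 0.898 to 1.28; adjusted p = 0.547, edgeR quasi-likelihood test), and the log2 value of 0.10 became -0.052 with the length trend removed. For both genes, changes of more than 1.5-fold lie outside the interval.

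Dtna encodes alpha-dystrobrevin, a cytoplasmic partner of dystrophin. Its control libraries were nearly alike, at 61.4, 62.4, 65.1 and 62.0 CPM in M1, M2, F1 and F2. The mutant libraries spread from 52.3 (M3) to 81.8 CPM (M2) with a median of 67.4, on both sides of the controls. The SD was 1.61 CPM in control (n = 4) and 11.6 CPM in mutant mice (n = 6), a difference in spread that was not tested. The fold change of the means was 1.10 (95% interval 0.926 to 1.31; adjusted p = 0.391, edgeR quasi-likelihood test).

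Sntb1, beta-1-syntrophin, an adaptor that brings signalling proteins to dystrophin, was counted by few reads. The control libraries held 12, 11, 10 and 18 reads (1.72, 1.82, 1.57 and 2.44 CPM). The mutant libraries held 8 to 40 reads, from 1.26 CPM in F1 to 5.83 in M2 with a median of 3.18. The groups overlapped, and 1 mutant mouse was below the control mean. The fold change was 1.68 with a 95% interval of 0.986 to 2.86 (log2 0.75 ± 0.36, SE; adjusted p = 0.127, edgeR quasi-likelihood test). The exact permutation test gave p = 0.133. Without mutant F1 the values were 0.92 on the log2 scale and an adjusted p of 0.0374 in the same edgeR test, and Sntb1 was called higher. Without mutant M2, the library with the most reads, they were 0.48 and 0.283 in that test. Its depth, at most 40 reads per library, limits this comparison.

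Over the 8 members, then, 1 was called lower and 0 were called higher, beside 7.16% and 8.5% of all tested genes (edgeR). DESeq2 and limma gave the same counts. At an unadjusted p under 0.05, 3 of 8 members were lower and 0 higher in edgeR, beside 21.1% and 21.7% of all tested genes. By adjusted p alone, 2 of 8 were lower and 0 higher, beside 15% and 16.3% of all tested genes. The median log2 fold change of the members was -0.17 and that of all tested genes -0.0050, and 5 of 8 members had negative values. With the length trend removed, 0 of 8 were called, beside 6.5% of tested genes called lower, and the median of the members was -0.13. Dag1 was then the 1 member with an adjusted p under 0.05, beside 12.8% of tested genes lower by that threshold.

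**Figure D3:**
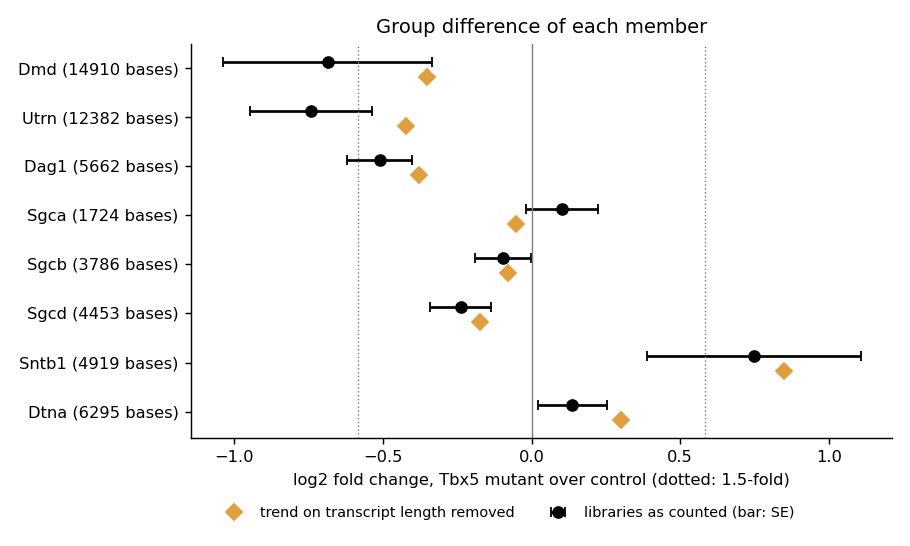
The log2 fold change of each member in Tbx5 mutant over control mice (horizontal axis), with its SE as a bar (black), and the value with each library's transcript length trend removed (yellow diamonds). Longest transcript lengths stand beside the gene names, and dotted lines mark a 1.5-fold change. Removal of the trend moves Dmd from -0.69 to -0.35 and Utrn from -0.74 to -0.42, more than it moves Dag1 (-0.51 to -0.38), and carries Sgca across 0.

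Another 9 genes of the complex were followed, and 6 of them were tested. Of these 6, 1 was called higher and 0 lower, beside 8.5% and 7.16% of all tested genes. By adjusted p alone, 1 was higher and 1 lower, beside 16.3% and 15% of all tested genes. These counts are no result on the list as a group. Dtnb, beta-dystrobrevin, was lower and passed on adjusted p alone (log2 fold change -0.49, adjusted p = 0.0258, edgeR quasi-likelihood test). The 1 gene called was the rarely counted gamma-2-syntrophin gene Sntg2, at 0.765 ± 0.334 CPM in control (n = 4) and 1.95 ± 1.02 CPM in mutant mice (n = 6; log2 fold change 1.32, adjusted p = 0.0456, same test). Its groups overlapped, and with the length trend removed its adjusted p was 0.0704 in the edgeR test. It was also not called by limma, and in 9 of the 10 fits that left out 1 library it was not called.

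The other tested complex genes did not pass in the main fit. Sspn, which encodes sarcospan, had a log2 fold change of 0.15 (316 and 351 CPM on average). That of Sgce, epsilon-sarcoglycan, was 0.0034, with both means at 44.1 to 44.2 CPM. Sntb2, beta-2-syntrophin, was at 0.24. With the length trend removed, Sntb2 was at 0.53 and passed on adjusted p alone (adjusted p = 0.00299, edgeR quasi-likelihood test). By that threshold, 14.9% of all tested genes were higher after the removal. Drp2, a short relative of dystrophin, was at 0.27 with a mean near 4 CPM in both groups. Sgcz had 0 reads in all 10 libraries, Sntg1 had 0 to 11 and Nos1 had 1 to 9, and none of these 3 was tested.

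Alpha-dystroglycan binds laminin only through sugars added by a set of enzymes, many of which cause dystroglycanopathies when mutated. Of 16 such genes followed, 15 were tested and 0 were called by edgeR, DESeq2 or limma. An unadjusted p under 0.05 was found for 1 lower and 2 higher genes in edgeR, beside 21.1% and 21.7% of all tested genes, and none had an adjusted p under 0.05. The median log2 fold change of the list was 0.062, near that of all tested genes.

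On the outside of the cell, 9 of 10 ligand genes were tested and 0 were called by any of these tools, with 1 lower and 3 higher at an unadjusted p under 0.05 in edgeR, where 21.1% of all tested genes were lower and 21.7% higher. Lamb1, a laminin beta chain, and Hspg2, which encodes perlecan, passed on adjusted p alone and were higher. Lamb1 was at 173 ± 14.8 and 225 ± 32.3 CPM (n = 4 and 6; log2 fold change 0.38, adjusted p = 0.0209, edgeR quasi-likelihood test). Hspg2 was at 618 ± 79.8 and 810 ± 136 CPM (log2 fold change 0.39, adjusted p = 0.0453, same test). The major muscle laminin chain Lama2 was at 0.087 on the log2 scale (adjusted p = 0.617, same test). With the length trend removed, 5 of the 9 had an adjusted p under 0.05, all higher (14.9% of tested genes were), and Hspg2 was called (log2 fold change 0.79). Lama2 was also among the 5, at a log2 fold change of 0.36 (adjusted p = 0.0211, same test).

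Beside the complex, the costamere links the Z-disc to the membrane, and here 6 of 20 tested genes were called higher and 0 lower, beside 8.5% and 7.16% of all tested genes. The list was written with earlier results of these data known, so its count is a description. Cav3, which encodes the muscle caveolin that binds the same dystroglycan tail as dystrophin, was at 36.0 ± 4.93 CPM in control (n = 4) and 75.2 ± 11.7 in mutant mice (n = 6; log2 fold change 1.06). Des, the muscle intermediate filament desmin, rose from 957 ± 109 to 1905 ± 202 CPM (log2 0.99). Csrp3, a Z-disc LIM protein, rose from 1015 ± 87.8 to 2053 ± 315 CPM (log2 1.02), and Dysf, a membrane repair protein, from 48.1 ± 2.77 to 94.3 ± 24.5 CPM (log2 0.97). None of these 4 had overlapping groups, as was the case for 11.7% of all tested genes in the higher direction. Itga7, the laminin-binding integrin chain of muscle, was at 0.62 and Mlip at 0.61 on the log2 scale. The adjusted p of the 6 ran up to 0.00301 in the edgeR quasi-likelihood test.

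Some costamere genes passed on adjusted p alone: Itgb1, Vcl, Ilk and Tln1 were higher (log2 fold changes 0.34, 0.36, 0.30 and 0.29) and Tln2 was lower (-0.35, adjusted p = 0.0271, edgeR quasi-likelihood test). With the length trend removed, Tln2 was at -0.026 and its call on adjusted p was lost, while Cav3, Des, Csrp3, Dysf and Itga7 were still called higher, 5 of 20 beside 7.84% of all tested genes. The ankyrins Ank2 and Ank3, which help to place dystrophin at the membrane, were at -0.28 and -0.15 and did not pass. The median log2 fold change of the 20 genes was 0.32, against -0.17 for the 8 members.

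**Figure D4:**
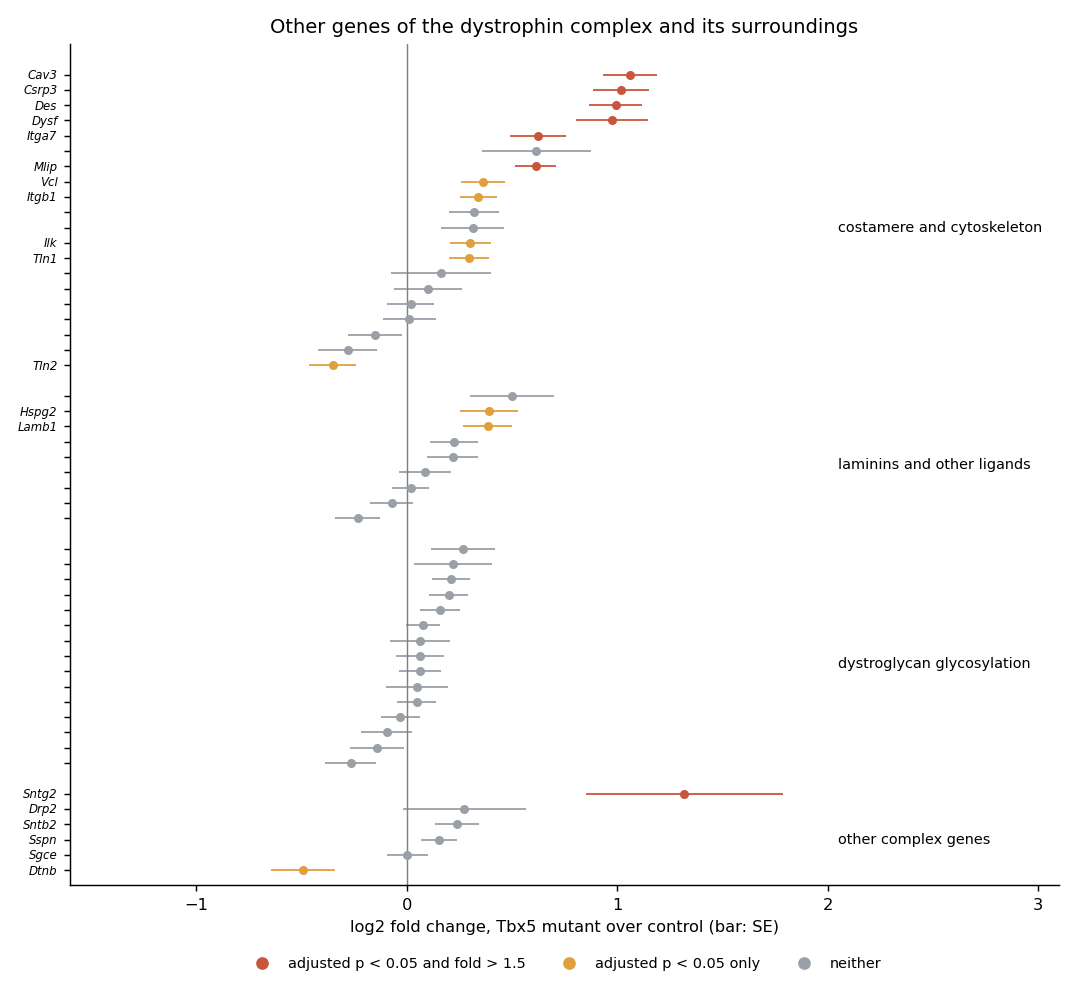
The log2 fold change in Tbx5 mutant over control mice (horizontal axis), with its SE as a bar, for the 50 tested genes of 4 lists around the complex. Red points passed the adjusted p and fold thresholds, yellow points the adjusted p threshold alone, and grey points neither. Names are given for the complex genes and for those past the adjusted p threshold. Of the 7 red points, 6 are costamere genes, all to the right of 0, and the dystroglycan glycosylation genes lie around 0.

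Markers of other cell types moved with the groups, and their part in the results above was not tested. Of all tested genes, 8.5% were called higher and 7.16% lower. The summed level of 7 fibroblast markers was 3783 to 5009 CPM in control and 6203 to 9429 CPM in mutant libraries, with 3 of 7 called higher. These 3 were the collagen genes Col1a1, Col1a2 and Col3a1. Lum and Tcf21 were at log2 fold changes of 0.45 and 0.57 and did not pass, and Dcn was at -0.012. Pdgfra was lower and passed on adjusted p alone (log2 fold change -0.40, adjusted p = 0.0152, edgeR quasi-likelihood test). The summed level of 6 leukocyte markers was 163.5 to 235 and 276 to 375 CPM, with 4 of the 4 tested called higher. Of 7 smooth muscle and pericyte markers 2 were called higher, and of 6 endothelial markers 0 were called. For the 10 cardiomyocyte markers the sum was 142500 to 194200 CPM in control and 82210 to 154200 CPM in mutant libraries, with 4 called lower and 1 higher. Ryr2, Myl7, Nppa and Sln were the 4 lower ones, and Tnnt2 was higher. Actn2 was higher and Myl4 lower on adjusted p alone (log2 fold changes 0.33 and -0.44, adjusted p = 0.0263 and 0.0217, edgeR quasi-likelihood test). Myh6, Tnni3 and Ttn did not pass. Ttn, the giant sarcomere protein titin with the longest transcript of these markers, was at 82380 CPM on average in control and 51940 in mutant libraries, and its log2 fold change of -0.67 became -0.046 with the length trend removed. Without Ttn, left out after its values were seen, the sum of the other 9 was 73760 to 87570 and 55060 to 69450 CPM. Among these 9, Nppa was at 26830 CPM on average in control and 17110 in mutant libraries, and Myl7 at 6372 and 960. Tnnt2 was at 3332 and 7230 CPM, so the markers did not move as 1. Of the tested Schwann cell, epicardial and skeletal muscle markers 0 were called. The Schwann cell sum was 18.9 to 23.5 and 12.0 to 23.9 CPM, and the epicardial sum 277 to 290.3 and 161 to 335 CPM. The skeletal muscle sum did not overlap between groups, at 699.5 to 1173 CPM in control and 1240 to 1639 CPM in mutant libraries. Nearly all of it was Ckm, the muscle creatine kinase that heart also expresses, which passed on adjusted p alone (log2 fold change 0.58, adjusted p = 0.00796, edgeR quasi-likelihood test). None of the 4 adipocyte markers passed the filter on low counts. Both tested ventricular markers, Myl2 and Myl3, were called higher, with a summed level of 35.0 to 57.7 CPM in control and 603 to 845 CPM in mutant libraries.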

How the data were processed

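RNA-seq of right atria from 10 mice was analysed from 1 table. The deposited counts are whole reads per gene. The authors also deposited a normalized signal, each count divided by 1 DESeq2 size factor per library, of which only the control mean was used. Their own comparison was left out: a log2 fold change with SE, a Wald score, p-values and the fold change as a ratio, all as deposited by the authors. The submitters' processing notes name mm10, TopHat2 2.0.11, featureCounts, DESeq2 and FastQC without roles. The annotation and strand setting are not given in the sources used here. The labels describe both an mRNA kit and ribosome-depleted total RNA.

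Counts were compared with edgeR 4.0.16 (R 4.3.3; TMM scaling, filter on low counts, quasi-likelihood test, Benjamini-Hochberg adjustment over 13084 genes), without covariates. Calls needed an adjusted p under 0.05, a fold change over 1.5 and a control signal over 1. The SE was the size of a log2 fold change divided by the root of its F statistic, and 95% intervals use the test's degrees of freedom. CPM values use the TMM-scaled library size. Mean CPM was compared by an exact permutation test, two-sided, over 210 splits. Mice are separate animals. Pairs of libraries within a group differed by more than counting noise (chi-square per degree of freedom at least 3.78 in 21 pairs). Counts carry no molecular identifiers, so 3 counts, 4.23e-05% to 5.26e-05% of a library, is a floor for counting error only. The length trend was a lowess curve (span 0.4) of each library's deviations on the longest GENCODE M21 transcript, entered as an offset. Correlations used log2 CPM with a prior count of 1, after group means were removed. The fits were tested on simulated data. Alternatives were other scalings, filters, prior counts and thresholds, DESeq2 1.42.0, limma 3.58.1, sex, a block on the label, GC content, counts without Rn45s, each labelled sex alone and each library left out. The block on the label number and the alternatives tried for the count of members past the permutation test were added after seeing the data.

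The members and gene lists were chosen with earlier results of these data known. Named genes were the 8 members, called genes of the lists, all other complex genes, the 2 genes most like each member, and markers of lists that moved. List genes named for an adjusted p under 0.05 alone, and Lama2, Ank2 and Ank3, were chosen after their values were seen. Some genes of the lists and rankings are not reported here, and the list counts leave them out. The symbols of 63 of 63 list genes were found in the table, some under older names (Mlip as 2310046A06Rik).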

Additional observations from a re-analysis of the deposited data

How the results depend on the processing

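The number of genes called was 2049, and 1284 with a mean count of at least 50, 906 with a fold change over 2 and 4096 with no fold threshold. Members called lower numbered 1 of 8, beside 7.16% of all tested genes. They numbered 2 with the replicate block, with the label number as a block (added after seeing the data) and with no fold threshold. The replicate block called 881 of 12962 tested genes lower and the label number block 944 of 13084. By adjusted p alone, 15% of all tested genes were lower. Members called lower numbered 0 with the length trend removed, with that removal and the replicate block together, in mice labelled male only or female only, with a fold change over 2 and with an adjusted p under 0.01. With the length trend removed, 6.5% of all tested genes were called lower. Leaving out 1 library gave 1 to 2 members called lower and 0 to 1 called higher, the second values without mutant F1. In that fit 1001 of 13071 tested genes were called lower and 1139 higher. Called genes of the 4 surrounding lists numbered 7 (1 complex gene, Sntg2, and 6 costamere genes), and 3 with a fold change over 2 and 15 with no fold threshold. Members with an exact permutation p under 0.05 numbered 2, and 1 with the length trend removed and 1 to 4 with a library left out (1 without control M1 or F1, 4 without mutant F1). The share of all tested genes past the permutation test is not given here, so this count is no result on the complex as a group. The log2 fold change of Sgca, 0.10, was -0.052 with the length trend removed, -0.088 with the replicate block as well and -0.14 in mice labelled female only. That of Dmd was -0.59 with the replicate block (adjusted p = 0.0478) and with the label number as a block (adjusted p = 0.0218, both edgeR), with a range of 0.0218 to 0.399 over its 27 alternatives. Utrn had an adjusted p of 0.0817 in mice labelled male only and 0.0730 in mice labelled female only (edgeR). By their Xist and Ddx3y reads, the controls and the mutants in each of these labelled-sex fits were of different sexes. Group and sex cannot be told apart in them. Dtna passed, at 0.39 and an adjusted p of 0.0336, with the replicate block and length removal together. The cause of these shifts was not tested. The deviations of same-labelled mice of different groups correlated at -0.00712 on average over 4 pairs, against 0.00129 over 20 others. Whether mice were paired cannot be settled by this, since by Xist and Ddx3y the same-labelled mice of the 2 groups differed in sex. Between mice of different groups with the same number in the label the deviations correlated at 0.0955, and with another number at -0.0479. Sntb1, with at most 40 reads, and Sntg2 are limited by depth.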
